A study of Mus with 12 samples.

Results

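The 10 genes of basophils, mast cells and eosinophils followed here in mouse blood were Hdc, Fcer1a, Ms4a2, Cpa3, Mcpt8, Prss34, Gata2, Siglecf, Il5ra and Ccr3. They were taken by gene name from the deposited blood table, where each of the 10 had a single row among 25247 genes. Blood RNA of female BALB/c mice, 6 weeks old when purchased, was collected on day 30 of a model of atopic dermatitis. There were 4 groups with 3 libraries each, and 12 libraries in all. The Solvent group received the acetone and olive oil vehicle on the skin. The DNCB group was sensitized with 1% and then challenged with 0.5% 1-chloro-2,4-dinitrobenzene (DNCB), a hapten that binds to skin proteins and causes contact allergy. The scMSC group received the same DNCB and repeated doses of 2000000 human umbilical cord mesenchymal stem cells (MSC) in 100 µL, injected under the skin beside the lesion. The scivMSC group received the same DNCB and cell dose, with 50 µL injected under the skin and 50 µL into the tail vein. All MSC-treated mice thus carried DNCB as well, no library comes from MSC without DNCB, and the human cells were given to an immunocompetent mouse strain. The study had 6 mice in each group, and the labels do not say whether the libraries come from separate mice, so p-values measure the spread between these libraries only.

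Basophils are rare blood granulocytes that carry the high-affinity IgE receptor, release histamine and make IL-4. Mast cells share the receptor and much of the granule content but mature in tissue, and few are found in blood. Eosinophils are granulocytes that depend on IL-5, follow eotaxin through CCR3 and carry cationic granule proteins. All 3 cell types take part in allergic inflammation of the skin. Hdc encodes histidine decarboxylase, the enzyme that makes histamine from histidine. It is known from basophils and mast cells and is also expressed in neutrophils and immature myeloid cells. Fcer1a and Ms4a2 encode the alpha and beta chains of the high-affinity IgE receptor. Cpa3, Mcpt8 and Prss34 encode granule proteases, of which Mcpt8 and Prss34 are used as markers of mouse basophils. Gata2 is a transcription factor of basophils, mast cells, megakaryocytes and blood progenitors. Siglecf, Il5ra and Ccr3 encode surface proteins of eosinophils, namely a sialic acid-binding inhibitory receptor, the IL-5 receptor alpha chain and the eotaxin receptor.

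By the deposited positions, which overlap those of the same genes on GRCm38.p6, the 10 genes lie on 9 chromosomes. Hdc (ENSMUSG00000027360) spans chr2:126593667-126618678 on the minus strand, Fcer1a (ENSMUSG00000005339) chr1:173221284-173227214 minus, and Ms4a2 (ENSMUSG00000024680) chr19:11615523-11623719 minus. Of the protease genes, Cpa3 (ENSMUSG00000001865) spans chr3:20215620-20242181 minus, Mcpt8 (ENSMUSG00000022157) chr14:56082166-56085273 minus, and Prss34 (ENSMUSG00000056399) chr17:25298394-25300165 plus. Gata2 (ENSMUSG00000015053) at chr6:88193891-88207032 plus and Il5ra (ENSMUSG00000005364) at chr6:106710357-106749037 minus share a chromosome. Siglecf (ENSMUSG00000039013) spans chr7:43351341-43359531 plus and Ccr3 (ENSMUSG00000035448) chr9:124021972-124031689 plus.

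The libraries held 52.18e6 to 65.14e6 estimated counts, of which haemoglobin genes took 78.4% to 89.0%. Counts other than haemoglobin ranged from 5.84e6 to 12.9e6, and between 11806 (scivMSC replicate 2) and 17350 (Solvent replicate 3) genes had at least 4 counts. A sequenced fragment was worth about 4 counts, so 12 counts, equal to 3 fragments, were taken as the counting floor. Levels are given in FPKM, the number of fragments normalised to gene length and library size, with haemoglobin in the total. Fewer cells of a type and less RNA per cell cannot be told apart in these bulk samples. Scaled by total counts, the median log2 fold change of all 13026 genes tested was -0.26 for DNCB relative to Solvent. For scMSC and scivMSC relative to DNCB it was -0.50 and -1.50. With the trimmed mean of M values (TMM), which centres most genes near no change, these medians were -0.04, 0 and -0.11. Changes of the 10 genes are therefore read against these medians, and TMM values are given where they alter a call.

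Hdc was the only gene of the 10 to exceed 3.69 FPKM in any library, and 6 of the others reached the counting floor in at least 1 library. Counts of Hdc ran from 201 to 9986 per library, which is far above the floor of 12 counts in each. Mcpt8, Gata2 and Siglecf were also above the floor in all 12 libraries, at 15 to 235, 93 to 581 and 18 to 134 counts. Prss34 had at most 12 counts in 6 of the 12 libraries, including all 3 Solvent libraries. Fcer1a and Cpa3 were at or under the floor in 3 libraries each, Il5ra in 2, and Ms4a2 and Ccr3 in 1 each. Fcer1a was the weakest of the 10, with no library above 61 counts, or 15.2 fragments. All 10 genes passed the filter of a mean of 12 counts over the 12 libraries, and 5 of them passed a filter of 1 FPKM in at least 3 libraries.

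**Figure D1:**
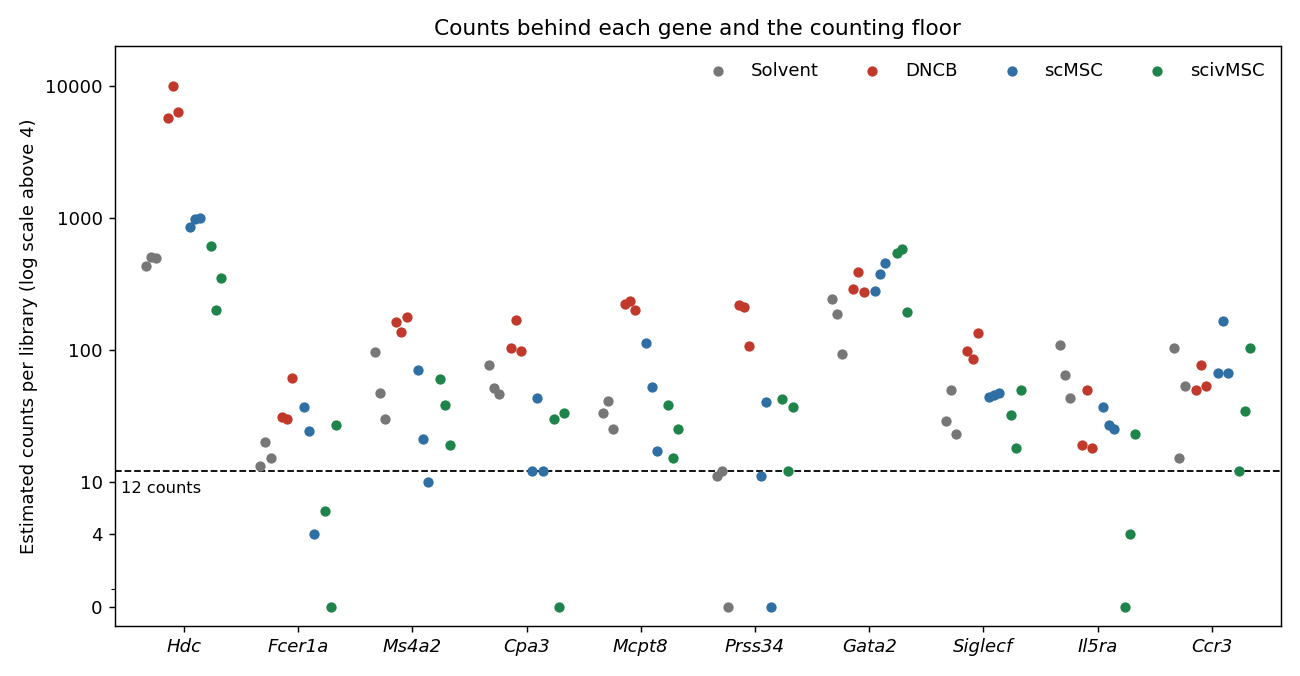
Estimated counts of the 10 genes in each of the 12 libraries, on an axis that is logarithmic above 4 counts, with 1 point per library coloured by group. The dashed line marks the floor of 12 counts: all Hdc points lie at 201 or more, whereas the 3 Solvent points of Prss34 lie at 12 or less.

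Hdc rose in DNCB blood and was lower again in both MSC groups. Its level was 0.999, 1.20 and 1.12 FPKM in the Solvent libraries and 14.5, 24.6 and 15.6 FPKM in the DNCB libraries. It was 2.42, 2.43 and 2.58 FPKM in scMSC, and 1.66, 0.561 and 0.951 FPKM in scivMSC. Every DNCB library lay above all 9 others, the scMSC libraries lay between DNCB and the rest, and Solvent and scivMSC overlapped. The mean level was 1.11 ± 0.104 FPKM in Solvent, 18.2 ± 5.55 in DNCB, 2.48 ± 0.0904 in scMSC and 1.06 ± 0.555 in scivMSC (SD, n = 3 each). The log2 fold change of Hdc in DNCB against Solvent was 4.03 (adjusted p = 2.01e-05, SE 0.39, edgeR quasi-likelihood test with Benjamini-Hochberg adjustment over 13026 genes). In scMSC against DNCB it was -2.89 (adjusted p = 0.000453, SE 0.37, same test), and in scivMSC against DNCB it was -4.11 (adjusted p = 2.04e-05, SE 0.39). With TMM the scivMSC difference was smaller, at -2.72 (adjusted p = 1.56e-05). These 3 comparisons share the DNCB libraries. The study also picked Hdc from these libraries, so its direction here is not independent evidence.

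**Figure D2:**
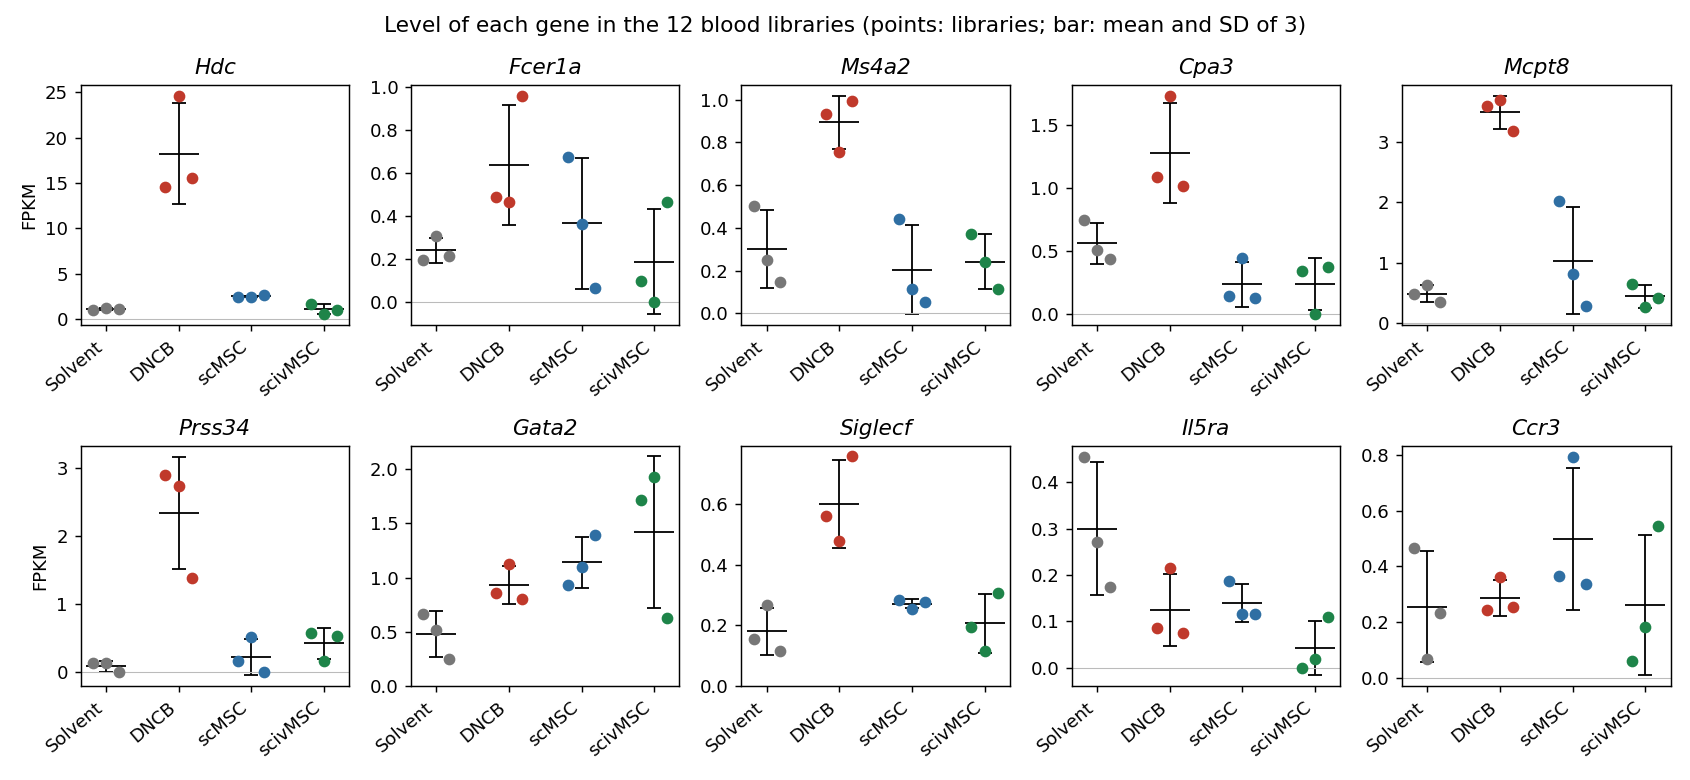
Level of each of the 10 genes in FPKM by group, with 1 point per library and the mean and SD of 3 libraries as bars; each panel has its own axis. Hdc reached 14.5 to 24.6 FPKM in DNCB and stayed under 2.6 FPKM elsewhere, while the highest value of any other gene was 3.69 FPKM, for Mcpt8 in DNCB.

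The basophil proteases Mcpt8 and Prss34 rose with DNCB. Mcpt8 encodes mast cell protease 8 and stood at 0.485, 0.621 and 0.353 FPKM in Solvent and at 3.60, 3.69 and 3.18 FPKM in DNCB. It was 2.02, 0.808 and 0.279 FPKM in scMSC, and 0.649, 0.263 and 0.413 FPKM in scivMSC. The DNCB libraries were tightly grouped above all others, and the scMSC libraries were spread widely, with 2 above all Solvent libraries and 1 below them. Mcpt8 was higher in DNCB than in Solvent by a log2 fold change of 2.82 (adjusted p = 0.0144, SE 0.65, edgeR), a call that was lost without Solvent replicate 3 (adjusted p = 0.0699) or DNCB replicate 2 (adjusted p = 0.0518). It was lower in scivMSC than in DNCB by -2.94 (adjusted p = 0.00241, SE 0.66, edgeR), or -1.55 with TMM (adjusted p = 0.0441). In scMSC against DNCB the log2 fold change was -1.75 and did not pass the test (adjusted p = 0.0965, edgeR), although no scMSC library reached the lowest DNCB library.

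Prss34, a basophil serine protease, was listed at 0.132, 0.142 and 0 FPKM in Solvent and at 2.89, 2.73 and 1.39 FPKM in DNCB. It was 0.161, 0.513 and 0 FPKM in scMSC, and 0.585, 0.166 and 0.532 FPKM in scivMSC. The 3 DNCB libraries, with 107 to 218 counts, stood above the other 9, none of which had more than 42 counts. Because Solvent lay at the floor, DNCB was at least 16.0-fold higher (a log2 bound of 4.00, with each Solvent library set to 12 counts). The difference passed the test (adjusted p = 0.0307, edgeR), but the call was lost when any of the 3 Solvent or 3 DNCB libraries was left out (adjusted p = 0.0565 to 0.0970). In scMSC against DNCB the log2 fold change was -3.36 (adjusted p = 0.0816, SE 1.15), and in scivMSC against DNCB it was -2.43 (adjusted p = 0.0780, SE 1.10). Neither passed, while the 3 libraries of each MSC group were below all DNCB libraries.

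The IgE receptor chains had few counts and did not pass the test for DNCB against Solvent. Fcer1a had 13 to 20 counts in Solvent, 30 to 61 in DNCB, 4 to 37 in scMSC and 0 to 27 in scivMSC. DNCB lay above Solvent without overlap but overlapped both MSC groups. The log2 fold changes of Fcer1a were 1.43 (adjusted p = 0.504, SE 1.18), -0.80 (adjusted p = 0.756, SE 1.16) and -1.74 (adjusted p = 0.232, SE 1.19) for DNCB relative to Solvent and for scMSC and scivMSC relative to DNCB, so a difference was not detectable at this depth. Ms4a2 was 0.501, 0.252 and 0.145 FPKM in Solvent, 0.933, 0.754 and 0.993 in DNCB, 0.443, 0.115 and 0.0547 in scMSC, and 0.370, 0.240 and 0.113 in scivMSC. Its 3 DNCB libraries were the highest of the 12, and the other groups overlapped one another. For Ms4a2 the log2 fold change in DNCB against Solvent was 1.55 (adjusted p = 0.215, SE 0.72, edgeR), and with TMM it was 1.90 and passed (adjusted p = 0.0473).

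Cpa3 encodes carboxypeptidase A3, a granule protease of mast cells and basophils. Its level was 0.748, 0.510 and 0.436 FPKM in Solvent, 1.09, 1.73 and 1.02 in DNCB, 0.143, 0.443 and 0.128 in scMSC, and 0.341, 0 and 0.377 in scivMSC. The DNCB libraries again stood above all others. Cpa3 was 1.17 higher on the log2 scale in DNCB than in Solvent (adjusted p = 0.478, SE 0.91, edgeR), and the log2 fold change of scMSC relative to DNCB was -2.41 (adjusted p = 0.137, SE 0.96). Mature tissue mast cells are known to express Cpa3, Ms4a2 and Fcer1a as well. Of 8 mast cell markers, 5 were analysed, and Mcpt4, Mcpt2 and Tpsb2 had at most 12 counts in every library of every group. The summed level of these 5 genes did not exceed 0.814 FPKM in any library and was 0.206 to 0.814 FPKM in Solvent and 0.103 to 0.677 FPKM in DNCB. Of the other 2 markers, Kit, the stem cell factor receptor of mast cells and blood progenitors, was 0.0390 ± 0.0366 FPKM in Solvent and 0.165 ± 0.0543 in DNCB (SD, n = 3 each), without overlap. Its log2 fold change was 2.02 (adjusted p = 0.162, edgeR) and passed with TMM at 2.41 (adjusted p = 0.0244). Kit was below all DNCB libraries in both MSC groups, and it was called lower in scivMSC (-2.62, adjusted p = 0.0201) but not with TMM (-1.24). It was at or under the floor in 2 Solvent and 2 scivMSC libraries. Cma1, a mast cell chymase, had means of 0.481 ± 0.305 FPKM in Solvent and 0.178 ± 0.262 in DNCB, and these groups overlapped. The part of mast cells or progenitors in the Cpa3, Ms4a2 and Fcer1a values was not tested.

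Gata2 did not follow the proteases. It was 0.668, 0.520 and 0.248 FPKM in Solvent, 0.856, 1.13 and 0.804 in DNCB, 0.930, 1.10 and 1.39 in scMSC, and 1.72, 1.93 and 0.624 in scivMSC. Its means rank Solvent, DNCB, scMSC and scivMSC from low to high, and DNCB, scMSC and scivMSC overlap. Against Solvent, DNCB libraries were 0.95 higher on the log2 scale (adjusted p = 0.235, SE 0.46, edgeR), and relative to DNCB the change was 0.28 in scMSC (adjusted p = 0.782, SE 0.45) and 0.60 in scivMSC (adjusted p = 0.271, SE 0.45). With TMM the last was 2.23 and passed (adjusted p = 0.00206). Gata2 was higher in scivMSC than in Solvent by 1.56 (adjusted p = 0.0108, SE 0.46, edgeR), although scivMSC replicate 3 at 0.624 FPKM lay within the Solvent range. This call held in each of the 12 fits that left out 1 library. It was lost when only these 2 groups entered the fit (adjusted p = 0.0535), and on log2(FPKM + 1) with limma the fold was under 2. Platelet markers, which come from another lineage that uses Gata2, had a summed level of 359 to 569 FPKM in Solvent, 551 to 745 in DNCB, 674 to 873 in scMSC and 677 to 788 in scivMSC, with none of the 5 at 0. Their part in the Gata2 values was not tested.

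The 3 eosinophil receptors did not move together. Siglecf was 0.155, 0.268 and 0.116 FPKM in Solvent, 0.562, 0.477 and 0.760 in DNCB, 0.284, 0.254 and 0.276 in scMSC, and 0.195, 0.115 and 0.308 in scivMSC. The DNCB libraries were the highest 3, and the other groups were close together. For Siglecf, DNCB against Solvent gave a log2 fold change of 1.73 (adjusted p = 0.0894, SE 0.59, edgeR), which passed in 6 of 21 alternatives and not in the other 15. It passed with TMM at 1.93 (adjusted p = 0.0178), with DESeq2 at 1.91 (adjusted p = 0.00192) and without scivMSC replicate 2 at 1.73 (adjusted p = 0.0405). The other passing settings were limma on log2(FPKM + 0.1), counts divided by 4 and only the 2 groups compared.

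Il5ra had its highest mean in Solvent and its lowest in scivMSC. It was 0.456, 0.272 and 0.173 FPKM in Solvent, 0.0854, 0.215 and 0.0754 in DNCB, 0.188, 0.117 and 0.115 in scMSC, and 0, 0.0189 and 0.109 in scivMSC. Solvent overlapped DNCB and scMSC but lay above all scivMSC libraries, of which 2 were at or under the floor. Over all genes tested, the median of scivMSC against Solvent was -1.79. Il5ra was called lower there by -2.75 on the log2 scale (adjusted p = 0.0391, SE 1.08, edgeR), within 1 SE of that median. That call was lost without Solvent replicate 1 (adjusted p = 0.127), Solvent replicate 2 (0.0637), scMSC replicate 1 (0.0502) or scivMSC replicate 2 (0.0887), and with TMM (-0.88, adjusted p = 0.533). In DNCB against Solvent its log2 fold change was -1.24 (adjusted p = 0.499, SE 1.01).

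Ccr3 was 0.465, 0.0703 and 0.232 FPKM in Solvent, 0.243, 0.362 and 0.255 in DNCB, 0.366, 0.793 and 0.338 in scMSC, and 0.0598, 0.184 and 0.544 in scivMSC. The libraries of Solvent and of scivMSC spread over the whole range of DNCB, and 1 scMSC library stood above all others. Its log2 fold changes of 0.17 (adjusted p = 0.923, SE 0.77) for DNCB relative to Solvent, 0.78 (adjusted p = 0.611, SE 0.77) for scMSC and -0.12 (adjusted p = 0.903, SE 0.77) for scivMSC relative to DNCB were within or near 1 SE of no change. The first turned negative without Solvent replicate 2 (-0.28) or DNCB replicate 2 (-0.05). The last turned positive without DNCB replicate 2 (0.09), scivMSC replicate 1 (0.34) or scivMSC replicate 2 (0.08), and with TMM (1.52).

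Counted over the 10 genes, DNCB against Solvent called 3 higher and 0 lower, beside 6.09% of all genes called higher and 1.77% lower. A call required an adjusted p under 0.05 and a fold over 2. At an unadjusted p under 0.05, 5 were higher and 0 lower, and DESeq2 called 6 higher and 0 lower. Counts of these 2 kinds, here and below, have no share of all genes beside them and are given as a description only. With TMM 5 of the 10 were called higher, beside 11.4% of all genes. In 8 of the 10, all but Il5ra and Ccr3, every DNCB library was above every Solvent library, beside 15.4% of all genes. The median log2 fold change of the 10 was 1.49, compared with -0.26 over all genes tested.

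In scMSC against DNCB, 1 of the 10 genes was called lower, Hdc, beside 9.1% of all genes, a share near the background, and none was called higher, beside 0.43%. At an unadjusted p under 0.05, 5 were lower and 0 higher, and DESeq2 called 3 lower and 0 higher. In 6 of the 10, Hdc, Ms4a2, Cpa3, Mcpt8, Prss34 and Siglecf, every scMSC library was below every DNCB library, beside 34.7% of all genes. The median over the 10 was -1.45, and -0.50 over all genes. Among those not called, the log2 fold change of Ms4a2 was -2.11 (adjusted p = 0.0864) and that of Siglecf -1.14 (adjusted p = 0.259, edgeR). The number called was unstable against single libraries: it reached up to 4 when 1 library was left out. Ms4a2 passed without scMSC replicate 1 (adjusted p = 0.0321) or scivMSC replicate 1 (0.0460), and Cpa3 passed without scivMSC replicate 2 (0.0114). Mcpt8 passed without scMSC replicate 1 (0.0426), scivMSC replicate 1 (0.0498) or scivMSC replicate 2 (0.0486), and Prss34 without Solvent replicate 3 (0.0462), scivMSC replicate 1 (0.0415) or scivMSC replicate 2 (0.0363).

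In scivMSC against DNCB, 5 of the 10 genes were called lower, Hdc, Mcpt8, Ms4a2, Cpa3 and Siglecf, beside 46.9% of all genes, so the count is near the background. None was called higher, beside 0.937%, and none was higher at an unadjusted p under 0.05, while DESeq2 called 1 higher and 2 lower. Likewise 6 of the 10 had every scivMSC library below every DNCB library, beside 58.2% of all genes. The log2 fold changes of Ms4a2, Cpa3 and Siglecf were -1.89 (adjusted p = 0.0424, SE 0.73), -2.40 (adjusted p = 0.0488, SE 0.96) and -1.53 (adjusted p = 0.0420, SE 0.59). Each lies within 1 SE of the median of -1.50 over all genes, and with TMM they were -0.46, -1.10 and -0.11 and did not pass. Ms4a2 lost its call without Solvent replicate 2, scivMSC replicate 2 or 3, or any DNCB library (adjusted p = 0.0540 to 0.131). Cpa3 kept it only without scivMSC replicate 1 or 2 and lost it in the other 10 fits (0.0520 to 0.145). Siglecf lost it without any DNCB or scMSC library or scivMSC replicate 1 or 2 (0.0536 to 0.122). With TMM, Hdc and Mcpt8 were called lower and Gata2 higher, beside 13.6% and 11.7% of all genes.

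**Figure D3:**
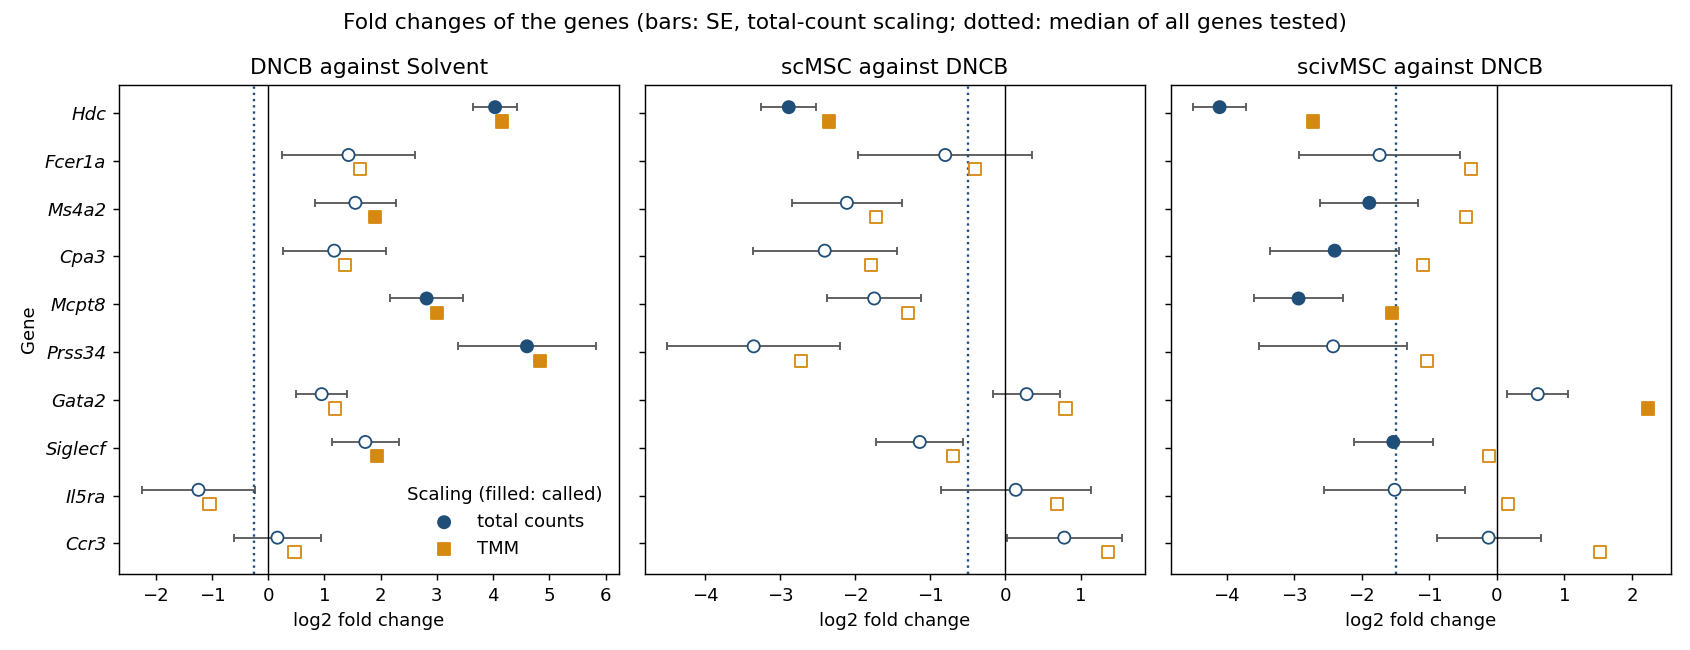
Log2 fold changes of the 10 genes in the 3 comparisons that involve DNCB, with libraries scaled by total counts (circles, bars of 1 SE) or by TMM (squares); filled symbols were called, and the dotted line is the median of all genes tested with total counts. Hdc was called in all 3 comparisons under both scalings, whereas Ms4a2, Cpa3 and Siglecf in scivMSC lie within 1 SE of the dotted line at -1.50. The Prss34 symbols for DNCB against Solvent are fitted values of a gene whose Solvent libraries were at the floor.

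The MSC groups were also set against Solvent, which asks how far they differed from mice without DNCB. Over all genes tested, the median log2 fold change relative to Solvent was -0.76 in scMSC and -1.79 in scivMSC. In scMSC against Solvent none of the 10 was called in edgeR, beside 0.0307% of all genes called higher and 0% lower (2 of the 10, Hdc and Gata2, were higher at an unadjusted p under 0.05, and DESeq2 called 3), and with TMM Hdc (1.79) and Gata2 (1.99) were called higher, beside 4.41%. Hdc and Gata2 were higher in scMSC without overlap, as were 4.47% of all genes, and Hdc stood at a log2 fold change of 1.15 (adjusted p = 0.169, SE 0.35). In scivMSC against Solvent, Gata2 was called higher, beside 1.73% of all genes, and Il5ra lower, beside 55.5%. With TMM 4 of the 10, Hdc, Prss34, Gata2 and Siglecf, were called higher, beside 15.4%. Hdc had a log2 fold change of -0.07 in that comparison (adjusted p = 0.863, SE 0.35), which became 1.43 with TMM (adjusted p = 0.000609) and 0.24 without scivMSC replicate 2. The order of scivMSC and Solvent for Hdc therefore depended on the scaling.

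Between the injection routes, Hdc was called lower in scivMSC than in scMSC at a log2 fold change of -1.22 (adjusted p = 0.0319, SE 0.35, edgeR), beside 18.2% of all genes called lower and a median of -0.97 over all genes. With TMM it was -0.36 (adjusted p = 0.328). The call was also lost without scMSC replicate 1 (0.0837), 2 (0.0568) or 3 (0.0848), or scivMSC replicate 2 (0.0805) or 3 (0.0927). None of the other 9 genes was called in this comparison with total counts, and with TMM Gata2 was higher by 1.43 (adjusted p = 0.0443), beside 7.05% of all genes called higher. An F test over the 4 groups passed for Hdc (adjusted p = 2.54e-06), Mcpt8 (0.00268), Prss34 (0.0110) and Ms4a2 (0.0450), beside 54.8% of all genes.

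The profile of Hdc over the libraries lay closest to a set of genes that includes the neutrophil genes Mmp9 and Cxcr2, and the basophil proteases came further down the ranking. Likeness was measured as the root mean square difference between centred log2 CPM values (library-scaled counts) over the 12 libraries, which share their depth and haemoglobin content, and is given as a description. The named genes most like Hdc among 13025 were Asprv1, a retroviral-like aspartic protease (0.256 log2 units, rank 1), Pygl, a glycogen phosphorylase (0.266, rank 3), C5ar1, the receptor of complement C5a (0.277, rank 4), Mmp9, a neutrophil granule gelatinase (0.299, rank 5), and Cxcr2, the neutrophil chemokine receptor (0.304, rank 6). Rank 2 was held by a predicted gene with a systematic name. Mcpt8 ranked 449 and Prss34 877, followed by Siglecf at 1437, Cpa3 at 1546, Ms4a2 at 1954 and Fcer1a at 2632. Gata2, Ccr3 and Il5ra ranked 8727, 8985 and 10344. The 11 genes of a neutrophil marker list ranked from 5 to 2471, so some of them lay further from Hdc than Mcpt8 and Prss34 did. The study picked Mmp9 and Cxcr2 beside Hdc from these same libraries. Genes with few counts vary more by counting error alone, and the part of this in the ranks was not tested.

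The ratio of Hdc to other genes also varied between groups. In FPKM, Hdc was 1.94 to 3.17 times Mcpt8 in Solvent and 4.04 to 6.68 times Mcpt8 in DNCB, so the ratio did not overlap between these groups. It was 1.20 to 9.27 in scMSC and 2.13 to 2.55 in scivMSC. This ratio rests on few counts of Mcpt8, with 25 to 41 in Solvent and 17 in scMSC replicate 3, the library with the ratio of 9.27. Relative to Cxcr2 the Hdc ratio was 0.127 to 0.199 in Solvent, 0.194 to 0.241 in DNCB, 0.156 to 0.186 in scMSC and 0.161 to 0.272 in scivMSC. Relative to Csf3r, the G-CSF receptor of neutrophils, the ratio did not overlap between Solvent (0.0368 to 0.0737) and DNCB (0.0846 to 0.0975), as with Mcpt8. Relative to Mmp9 it overlapped between Solvent (0.157 to 0.254) and DNCB (0.184 to 0.211), and in scMSC (0.254 to 0.324) it lay above DNCB. Cxcr2 and Mmp9 were named for their likeness to Hdc over these same libraries, so a narrow ratio to them is a description. The mean level of Cxcr2 itself went from 7.52 ± 1.73 FPKM in Solvent to 85.3 ± 15.0 FPKM in DNCB (SD, n = 3 each).

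**Figure D4:**
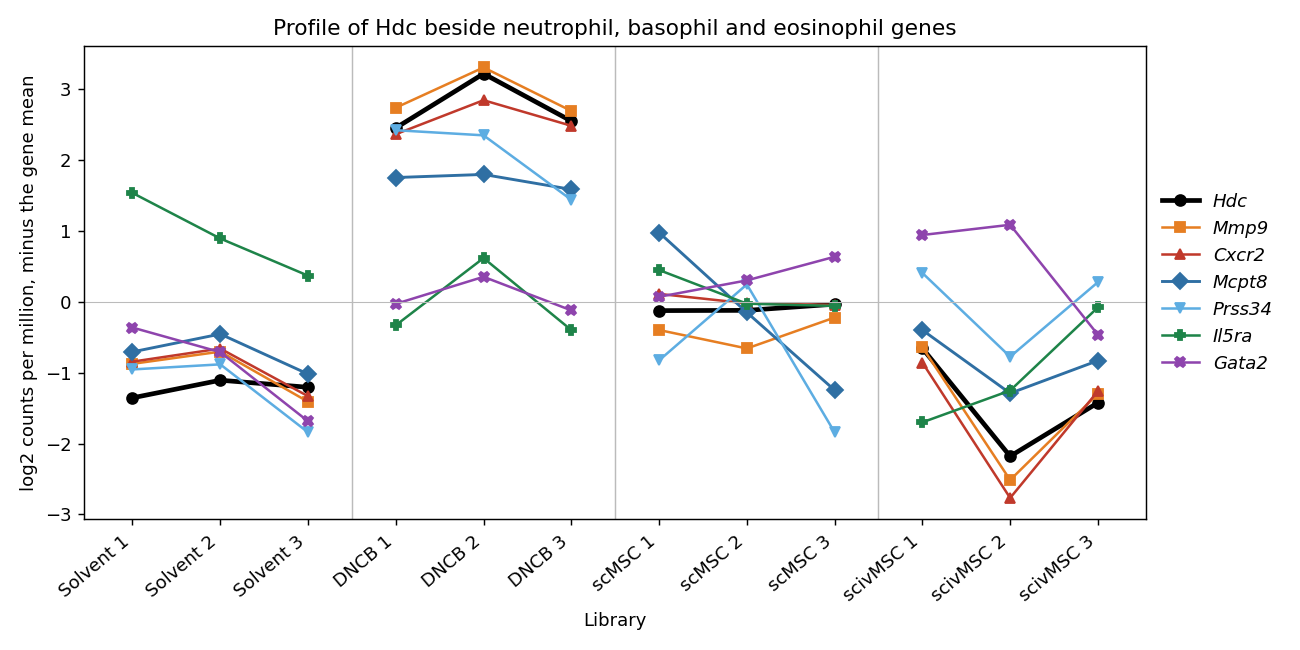
Log2 CPM (library-scaled counts) of Hdc, Mmp9, Cxcr2, Mcpt8, Prss34, Il5ra and Gata2 in each of the 12 libraries, minus the mean of the gene; lines join libraries of a group only to guide the eye, as replicates have no order. Mmp9 and Cxcr2 were named for their likeness to Hdc over these same libraries, so that Hdc runs beside them is a description. Mcpt8 and Prss34 share the DNCB peak, and Il5ra and Gata2 do not. The neutrophil markers Ly6g, Camp, Ltf and Ngp, which are not drawn, lay further from Hdc than Mcpt8 did.

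Neutrophil markers moved with Hdc and with the proteases. All 11 of a list of neutrophil markers were called higher in DNCB than in Solvent, beside 6.09% of all genes. All 11 were also called lower than in DNCB in scMSC, beside 9.1% of all genes, and in scivMSC, beside 46.9%. Their summed level was 221 to 446 FPKM in Solvent, 7043 to 11049 in DNCB, 582 to 724 in scMSC and 249 to 747 in scivMSC, and none of the 11 was at 0 in any group. Monocyte markers also had their highest sums in DNCB, at 20.6 to 37.7 FPKM against 6.58 to 16.7 in Solvent, but did not rise as a set. Of these 5 genes, 2 were called higher, beside 6.09% of all genes, and 4 with TMM, beside 11.4%. Their log2 fold changes ran from -1.15 to 1.73, and 2 of the 5 were higher without overlap. The part of these cells in the Hdc values was not tested. Keratinocyte markers, which would mark skin in the samples, did not exceed 0.255 FPKM in sum in any library.

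Genes of histamine breakdown, transport and reception changed in part. Of 8 such genes, 4 passed the filter: Hnmt, Hrh2, Slc18a2 and Slc22a3. Hnmt, the methyltransferase that inactivates histamine, rose from 0.169 ± 0.0720 FPKM in Solvent to 2.51 ± 0.282 in DNCB (log2 fold change 3.86, SE 0.93, adjusted p = 0.0181, edgeR), beside 6.09% of all genes called higher. None of the other 3 was called there with total counts. In scivMSC against DNCB, Hnmt (-4.08, adjusted p = 0.00301) and Hrh2, the H2 receptor (-3.13, adjusted p = 0.00964), were called lower, 2 of 4 beside 46.9% of all genes, so the count is near the background. In scivMSC, Hnmt had 0 to 37 counts, with 2 libraries at or under the floor. Hrh2 had 0 to 80 counts there, with 1 library at 0, so both folds are fitted values. With TMM Hrh2 was not called (-1.82), and Slc18a2 was called higher (1.52, adjusted p = 0.0174). None of the 4 was called in scMSC against DNCB with edgeR, and 2 were lower at an unadjusted p under 0.05. There Hnmt was at -2.58 (adjusted p = 0.0796) and Hrh2 at -2.25 (adjusted p = 0.117). Hrh2 was 1.81 higher in DNCB than in Solvent on the log2 scale (adjusted p = 0.215), without overlap of the libraries. Slc18a2, the vesicular monoamine transporter that loads histamine into granules, was at 1.51 in DNCB against Solvent (adjusted p = 0.152), and the groups overlapped. It was called with TMM at 1.57 (adjusted p = 0.0229).

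Other genes of the basophil programme showed called changes mainly in receptor chains that other myeloid cells express too. Of 15 such genes 10 were tested, and 2 were called higher in DNCB than in Solvent, beside 6.09% of all genes. These were Fcer1g, the gamma chain shared by the IgE receptor and other Fc receptors (2.67, SE 0.36, adjusted p = 0.000342), and Csf2rb2, a beta chain of the IL-3 receptor (2.99, SE 0.52, adjusted p = 0.00193). With TMM 4 were called higher, beside 11.4%, with the addition of Csf2rb, the common beta chain of the IL-3, IL-5 and GM-CSF receptors (1.89, adjusted p = 0.00363), and the myeloid factor Cebpa (1.22, adjusted p = 0.0273). Both Fcer1g and Csf2rb2 were called lower in scMSC than in DNCB, at -2.67 and -2.83, beside 9.1% of all genes. With TMM, Itga2 (1.16) and Il4 (1.91) were called higher there, which is a description only, as no share of all genes is given for it. In scivMSC against DNCB 5 of the 10 were called lower, Fcer1g, Csf2rb2, Csf2rb, Cd200r3 and Il3ra, beside 46.9% of all genes, so the count is near the background. With TMM, Cd200r3 and Il3ra were not called, and 3 of the 10 were called lower, beside 13.6% of all genes. Itga2 (1.90), Il4 (2.62) and Cebpa (1.33) were called higher with TMM, beside 11.7%. The study also showed Fcer1g and Hrh2 from these libraries, so their directions are not independent evidence. The more basophil-restricted Cd200r3 and the IL-3 receptor alpha chain Il3ra had log2 fold changes of 0.25 (adjusted p = 0.897) and 0.41 (adjusted p = 0.811) in DNCB against Solvent, and the groups overlapped. Il4, a cytokine that basophils and T cells make, was at -0.69 (adjusted p = 0.602).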

How the data were processed

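Blood RNA-seq was analysed from 12 libraries in 4 groups of 3, grouped by the sample titles. The authors deposited a table with an estimated count and an FPKM value per gene and library. Their processing notes name Bowtie 0.12.2, HISAT2 2.0, StringTie 1.3.0 and mm8 without roles, although the deposited positions overlap GRCm38.p6 RefSeq spans of the same symbol for 20617 of 21414 genes (96.3%) and for all 10 genes described. Strand handling is not given in the sources used here, and Mcpt8 overlaps Mir6949 on the same strand. The estimated counts are whole numbers, and of values from 1 to 12, 29.0% are 4, 16.0% are 8 and 9.75% are 12, so about 4 counts make a fragment. The FPKM values deposited by the authors include haemoglobin in the total. 

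Counts were tested with edgeR 4.0.16 (R 4.3.3), by the quasi-likelihood test with 4 group means over all 12 libraries, scaled by total counts. Genes with a mean of at least 12 counts entered, 13026 in all, and p-values were Benjamini-Hochberg adjusted over them. The SE is the absolute log2 fold change over the square root of F. Likeness used log2 CPM with a prior count of 12. Alternatives were TMM, totals without haemoglobin, DESeq2 1.42.0, other filters, limma 3.58.1 on log2(FPKM + 1) and log2(FPKM + 0.1), counts divided by 4, only the 2 groups compared, leaving out each library, and a replicate block. The scripts were tested on simulated data. The 10 genes and all lists were chosen with earlier results of these data known. Named genes are the 10, members of the further lists that passed the filter, genes of the marker lists, and the 5 genes likest to Hdc that have more than a systematic name. The plan was to name up to 3 genes of each marker list. More were named from the neutrophil and mast cell lists, and Epx was named although it was under the filter. Floors cover counting error only. No sequences are shown, as no sequence table was used here.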

Additional observations from a re-analysis of the deposited data

Results flagged for a closer look

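In the main fit, the change of Hdc against DNCB differed between the injection routes: the scivMSC change minus the scMSC change was -1.22 on the log2 scale (adjusted p = 0.0319, edgeR test of the difference itself, with all 3 scivMSC libraries below all 3 scMSC libraries). This is the comparison of scivMSC with scMSC given above and not a further result. Its call was lost in 9 of 22 alternatives, of which 5 left out 1 library. Over all genes tested the same difference had a median of -0.97, and with TMM the value for Hdc was -0.36 (adjusted p = 0.328).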

How the results depend on the processing

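Over 35 reported log2 fold changes of the 10 genes and 754 alternative values, 611 kept direction and side of the threshold, 71 lost a call, 55 gained one and 17 changed sign. The 12 called among these did not change sign under any alternative run. Genes of the other lists were compared under total counts and TMM only. Hdc in DNCB against Solvent and in both MSC groups against DNCB, and Mcpt8 in scivMSC against DNCB, kept their calls in all 22 alternatives. The cause of the other changes was not tested. In DNCB against Solvent, 5 of the 10 genes were called with TMM or only the 2 groups compared, and 6 with DESeq2. In scMSC against DNCB, 3 were called with DESeq2, the FPKM filter or limma on log2(FPKM + 1), 2 with no filter, and 5 with limma on log2(FPKM + 0.1), counts divided by 4 or only 2 groups. In scivMSC against DNCB, 3 were called with TMM, totals without haemoglobin, DESeq2, no filter or limma on log2(FPKM + 1), of which 1 was higher with the first 3 of these, while 6 were called lower with counts divided by 4 and 7 with limma on log2(FPKM + 0.1). In scMSC against Solvent, 2 were called with TMM or only 2 groups, 1 without haemoglobin and 3 with DESeq2. In scivMSC against Solvent, 4 were called with TMM, 6 with DESeq2, 1 without haemoglobin or with the FPKM filter, and 0 with limma on log2(FPKM + 1) or only 2 groups. In scivMSC against scMSC, 0 were called with limma on log2(FPKM + 1) or only 2 groups. Leaving out 1 library gave 1 to 4, 1 to 4, 2 to 5, 0 to 0, 1 to 2 and 0 to 1 calls in these 6 comparisons, in the order given. The counts of calls in this section have no share of all genes beside them and are given as a description only. Shares for the main fit and for TMM are given in the Results. In the main fit, 46.9% of all genes were called lower in scivMSC against DNCB, so counts of 6 or 7 of the 10 there cannot be read alone.

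Signs changed for Il5ra in scivMSC against DNCB (0.16 with TMM, 0.26 with DESeq2), for Ccr3 there (1.52 with TMM, 0.54 without haemoglobin, 1.63 with DESeq2) and for Hdc in scivMSC against Solvent (1.43, 0.24 and 1.48 in the same order). Leaving out 1 library gave -0.28 to 0.92 for Ccr3 in DNCB against Solvent, -1.22 to 0.34 for Ccr3 in scivMSC against DNCB, -0.12 to 0.75 for Il5ra in scMSC against DNCB and -0.55 to 0.24 for Hdc in scivMSC against Solvent. 

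Same-numbered libraries did not deviate together: of 18 such pairs 1 correlated above 0.1 (-0.120 to 0.125), so the numbers were not taken to pair samples. With the replicate block, 3 of the 10 genes were called for DNCB relative to Solvent, 2 and 3 for scMSC and scivMSC relative to DNCB, and 1 for scivMSC relative to Solvent. By mean count, depth limits Fcer1a (22.3 counts per library) and Il5ra (34.8) most.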

Other observations

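Further eosinophil genes did not share a single pattern. Of 10 such genes 7 were tested, and 3 were called higher in DNCB than in Solvent with edgeR, beside 6.09% of all genes. Ear2 and the lipoxygenase gene Alox15 overlapped between these groups (log2 fold changes 0.55 and 0.49), and Ear1 was higher without overlap but not called (1.58, adjusted p = 0.361). Cebpe, a factor of late granulocyte maturation that neutrophils use too, had a log2 fold change of 3.86 (adjusted p = 0.00135, SE 0.63), and Csf2ra, the GM-CSF receptor alpha chain that myeloid cells share, had 1.88 (adjusted p = 0.0164, SE 0.45). Both, 2 of the 7 tested, were called lower than in DNCB in scMSC, beside 9.1% of all genes, and in scivMSC, beside 46.9%. The count in scivMSC is thus not above the background, and Cebpe was not called there with TMM. Ear6, an eosinophil-associated ribonuclease, had 4 to 6 counts in Solvent and 44 to 55 in DNCB which makes it at least 4.36-fold higher (adjusted p = 0.0255). Ear genes are similar copies, and reads may have been divided among them.

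Prg2, the major basic protein of eosinophil granules, was not highest in DNCB. The study listed Prg2 partly from these libraries, so its direction is not independent evidence. Its counts were 0 to 4 in Solvent, 6 to 32 in DNCB, 63 to 87 in scMSC and 12 to 180 in scivMSC. The scMSC libraries stood above all DNCB libraries, while scivMSC overlapped them. Prg2 was called higher in scivMSC than in DNCB (log2 fold change 2.63, SE 0.98, adjusted p = 0.0373) and not in scMSC against DNCB (2.21, SE 0.97, adjusted p = 0.182, edgeR). Against Solvent, which lay at the floor, Prg2 was at least 6.74-fold higher in scMSC (adjusted p = 0.146) and at least 9.01-fold higher in scivMSC (adjusted p = 0.00190). Ear6 was likewise not lower in the MSC groups than in DNCB, at log2 fold changes of 0.02 (adjusted p = 0.995) and 0.54 (adjusted p = 0.574). Epx, eosinophil peroxidase, had at most 12 counts in every library. Siglecf, by comparison, was lower in each MSC library than in each DNCB library, as were 34.7% of all genes in scMSC and 58.2% in scivMSC. It was not called in scMSC against DNCB (-1.14, adjusted p = 0.259, edgeR). In scivMSC against DNCB its log2 fold change of -1.53 lay near the median of -1.50 over all genes and was -0.11 with TMM.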
